A study of Homo sapiens with 4 samples.

Results

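The FAT cadherins gave 27 of the 45182 circular RNAs (circRNAs, closed loops formed when a splice donor joins an acceptor upstream of it, called backsplicing) in the deposited tables. They were taken as all circles whose host symbol was exactly FAT1, FAT3 or FAT4, with 12, 9 and 6 circles. The members were selected on detection, since a circle is listed if it had at least 1 backsplice read in any library, and FAT1 was singled out with its lower circle level in DIS3-depleted cells already known. Circle levels and circle to linear ratios between the groups are therefore given below as a description, without p-values. Linear host RNA was not used to choose the members and was tested, for hosts with a value in all 4 libraries. The gene lists and tests were chosen with earlier results of these data known.

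The cells were Flp-In T-REx 293, human embryonic kidney cells that accept a transgene at a prepared genomic site, and every group carried an integrated, inducible Flag-HA DIS3. In 2 libraries of DIS3 KD clone 8, the endogenous DIS3 gene, which encodes a ribonuclease of the RNA exosome, had been cut with CRISPR/Cas9. The 2 control libraries had the tagged copy without that disruption. Column names mark every library as made without doxycycline, the inducer, and the labels call the edited cells knock down because some DIS3 remained. A single KD clone was profiled, so clone and DIS3 depletion cannot be told apart.

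FAT proteins are giant cell surface cadherins with long arrays of cadherin repeats outside the cell. FAT4 binds Dachsous cadherins in planar cell polarity. FAT1 links to actin through Ena/VASP proteins and acts as a tumour suppressor, and FAT3 shapes neurons in the mouse retina. In flies, Fat feeds into Hippo signalling, the kinase cascade that restrains the transcriptional coactivator Yorkie, the fly counterpart of YAP. Human FAT1 is known for an abundant circle made from its large second exon, circFAT1.

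Backsplice reads numbered 352471 and 121507 in KD replicates 1 and 2, with 165 and 47.9 gigabases mapped. In control replicates 1 and 2 they numbered 48895 and 55193, with 19.6 and 20.4 gigabases mapped. Depth thus differs with the group. Levels are FPBcirc, backsplice fragments per gigabase of mapped sequence, which count a single junction and need no length correction. DIS3 itself had 9 backsplice reads in all, and its linear RNA could be read in the KD libraries alone, at 11.7 and 15.9 FPB, so the label was not checked against controls. Of 10 genes the line is known to express, 3 were listed as circle hosts (VIM, PAX2 and RBFOX2), each with reads in KD libraries alone. None of 10 blood, liver and fibroblast markers was listed, and of 3 endothelial markers PECAM1 alone was, at a linear level of 0.00484 FPB in 1 library.

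The family was dominated by a pair of circles of nearly equal genomic span. The large FAT1 circle lies on chromosome 4 of hg38, from 186706563 to 186709845, and spans 3283 bases. The large FAT3 circle lies on chromosome 11, from 92352096 to 92355404, and spans 3309 bases. They held 1327 and 1025 of the 2428 backsplice reads of the family. The other 25 circles shared 76 reads, with at most 27 in any of them. FAT4 had no dominant circle, with 13 reads over 6 circles. FAT2 was not among the listed hosts.

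The large FAT1 circle stood lower in each KD library than in either control. It stood at 3.34 FPBcirc in KD replicate 1 and 4.72 in KD replicate 2 (553 and 226 reads), against 10.7 in control replicate 1 and 16.6 in control replicate 2 (209 and 339 reads). The 95% Poisson intervals, which cover counting error only, ran from 3.07 to 3.63 and 4.12 to 5.37 in KD, and from 9.29 to 12.2 and 14.9 to 18.4 in controls. No KD interval reached a control interval, while the libraries within each group also differed by more than their counting error. Group means were 4.03 ± 0.972 in KD and 13.6 ± 4.17 in controls (SD, n = 2 each), a ratio of 0.296 and a log2 fold change of -1.74 (SE 0.32).

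The large FAT3 circle had overlapping levels in the same libraries. It had 3.57 and 4.88 FPBcirc in KD replicates 1 and 2 (591 and 234 reads), against 4.30 and 5.67 in control replicates 1 and 2 (84 and 116 reads). The means were 4.23 ± 0.928 in KD and 4.99 ± 0.975 in controls (SD, n = 2 each), with a log2 fold change of -0.24 (SE 0.30). Its sign depended on the scaling, since library median centring, edgeR and DESeq2 gave 0.25, 0.42 and 0.40. The same settings gave -1.24, -1.10 and -1.12 for the FAT1 circle.

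**Figure D1:**
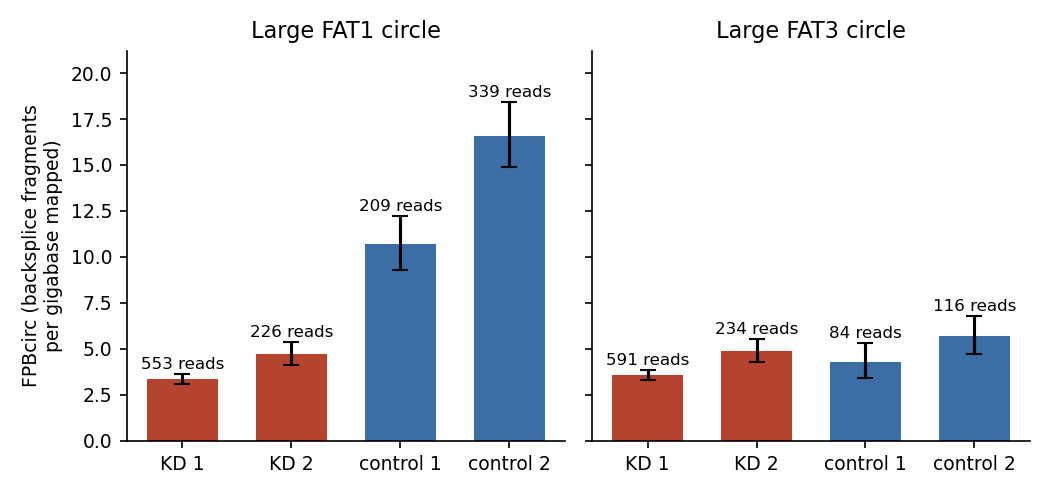
FPBcirc (backsplice fragments per gigabase mapped) of the large FAT1 and FAT3 circles in each library, with bars for the value, whiskers for the 95% Poisson interval and the read count above each bar. The FAT1 circle is at 3.34 and 4.72 in KD and at 10.7 and 16.6 in controls, while the FAT3 circle lies between 3.57 and 5.67 in all 4 libraries.

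Set against each other within a library, the circles give a ratio that does not depend on depth scaling. The FAT1 circle was 0.936 and 0.966 times the FAT3 circle in KD replicates 1 and 2, against 2.49 and 2.92 times in control replicates 1 and 2. In each KD library the Poisson intervals of FAT1 and FAT3 overlapped, with those of FAT3 at 3.29 to 3.87 and 4.28 to 5.55. In each control the FAT1 interval lay above that of FAT3, which ran from 3.43 to 5.32 and 4.69 to 6.81. Counted per 10000 backsplice reads of the library, the FAT1 circle had 15.7 and 18.6 reads in KD and 42.7 and 61.4 in controls. The FAT3 circle had 16.8 and 19.3 reads per 10000 in KD and 17.2 and 21.0 in controls.

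Among all circles of a library, the FAT1 circle ranked 35 and 24 by FPBcirc in KD replicates 1 and 2, and 8 and 4 in control replicates 1 and 2. The FAT3 circle ranked 26 and 23 in KD and 36 and 29 in controls.

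Only these 2 of the 27 members passed the filter on low levels (a mean of at least 0.174 FPBcirc) and entered the limma fit of 2427 circRNAs. Of them 0 passed the threshold of an adjusted p under 0.05, where 0.536% of all tested circRNAs did. For 1 of the 2, FAT1, the groups did not overlap and KD was lower, as for 38.4% of all tested circRNAs. Without control replicate 1 or control replicate 2 the FAT1 circle was past the threshold, at log2 fold changes of -2.05 and -1.42, but so were 31.4% and 28.3% of all tested circRNAs. Such a fit has a single control library, which is assumed to vary like the KD pair, and nothing is read from these calls. Without KD replicate 1 or 2 it was not, at -1.49 and -1.98. On the recovered reads DESeq2 called the FAT1 circle, with 9.81% of all circRNAs, and edgeR did not, with 0.0412% called. Just below the filter lay a FAT1 circle with a mean of 0.142 FPBcirc, and just above it no member lay closer than FAT3 at a mean of 4.61.

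Linear RNA here is the host signal (FPBlinear) derived from CIRCscore and FPBcirc, and how the authors counted it is not given. For FAT1 and FAT3 it was higher in each KD library than in either control, but neither gene passed the test. Linear FAT1 stood at 8.42 and 8.00 FPB in KD replicates 1 and 2, against 6.43 and 6.66 in control replicates 1 and 2. Its means were 8.21 ± 0.295 in KD and 6.54 ± 0.166 in controls (SD, n = 2 each), and limma gave a log2 fold change of 0.33 (SE 0.26, adjusted p = 0.340). The groups did not overlap, and the difference was small beside the variance shared over host genes.

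Linear FAT3 stood at 3.36 and 3.26 FPB in KD replicates 1 and 2, against 2.59 and 2.31 in control replicates 1 and 2. Its means were 3.31 ± 0.0718 in KD and 2.45 ± 0.200 in controls (SD, n = 2 each), and limma gave a log2 fold change of 0.43 (SE 0.28, adjusted p = 0.218). Thus 0 of 2 members passed, where 10.8% of the 2547 host genes tested were called higher. Both had higher KD values without overlap, as did 25.6% of all hosts. The median log2 fold change of all hosts was -0.21. With each library centred on its median both genes passed as higher (log2 fold changes 0.51 and 0.61, limma adjusted p = 0.0362 and 0.0334). Under that setting 560 of the 2547 hosts were called higher, against 275 in the main fit.

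Linear FAT4 was read at 1.79 and 1.58 FPB in KD replicates 1 and 2 and at 1.97 in control replicate 2. Control replicate 1 had no FAT4 backsplice read and so no linear value, which kept FAT4 out of the test. The number of reads behind a linear value is unknown here.

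CIRCscore is the deposited ratio of the circle to the linear RNA of its host, and a value above 1 means more backsplice than linear signal. The large FAT1 circle had 0.398 and 0.590 in KD replicates 1 and 2, against 1.66 and 2.49 in control replicates 1 and 2. It was below its linear host in both KD libraries and above it in both controls. The means were 0.494 ± 0.136 in KD and 2.07 ± 0.584 in controls (SD, n = 2 each; log2 fold change -2.06, SE 0.41).

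For the large FAT3 circle CIRCscore was 1.06 and 1.50 in KD replicates 1 and 2, against 1.66 and 2.45 in control replicates 1 and 2. It exceeded its linear host in every library. The means were 1.28 ± 0.307 in KD and 2.06 ± 0.564 in controls (SD, n = 2 each; log2 fold change -0.68, SE 0.41). FAT1 and FAT3 thus had nearly equal ratios in each control library and differed in each KD library.

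Of these 2 circles 0 passed in the CIRCscore fit of 1823 circRNAs, where 0.110% did. Both were lower in KD without overlap, as were 42.6% of the circles tested. With the spread again taken from the KD pair alone, the FAT1 circle was past the threshold without control replicate 1 (-2.35) and without control replicate 2 (-1.77), as were 14.4% and 15.6% of all circles, and nothing is read from this. A higher CIRCscore than that of FAT1 was found for 4.77% and 3.57% of the fitted circles in KD replicates 1 and 2, and for 1.32% and 1.37% in control replicates 1 and 2. For FAT3 these shares were 1.21% and 1.04% in KD and 1.37% and 1.48% in controls.

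**Figure D2:**
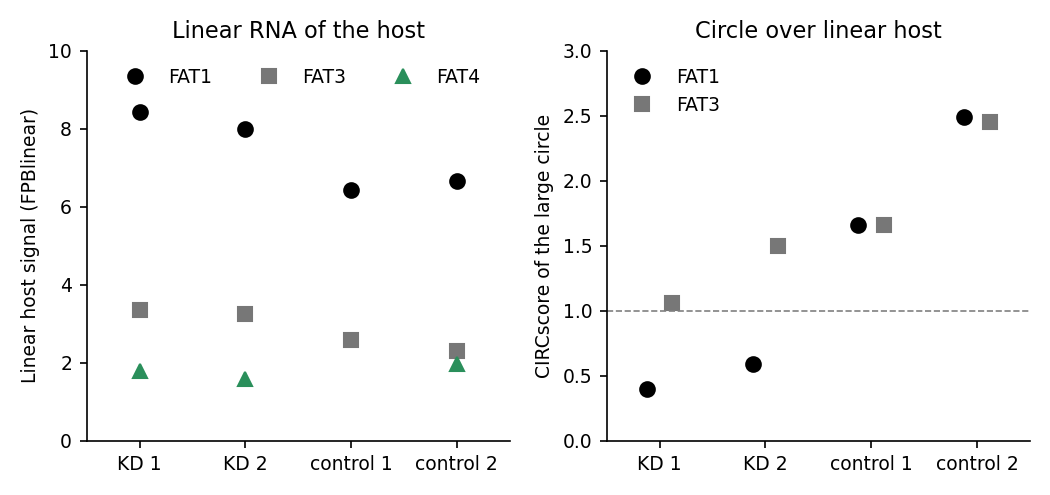
Left, linear host signal (FPBlinear) of FAT1, FAT3 and FAT4 in each library; right, CIRCscore of the large FAT1 and FAT3 circles, with a dashed line at 1 where circle and linear signal are equal. Linear FAT1 and FAT3 are higher in both KD libraries, and FAT1 alone has CIRCscores below 1 in KD, at 0.398 and 0.590.

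In the main fits circle and linear host lay on opposite sides of 0 for FAT1 and for FAT3, though neither linear change passed. For FAT3 the circle levels of the groups overlapped. With library median centring its circle (0.25) and its linear RNA (0.61) both lay above 0. The log2 fold change of the circle minus that of the linear RNA was -2.06 for FAT1 and -0.67 for FAT3, where the median over 2290 circles with a tested host was -0.26. It was below the FAT1 value for 116 of those circles. A circle lower in KD together with linear RNA higher in KD, each without overlap, was found for 151 of the 2290 (6.59%), FAT1 among them. Circle and linear RNA were both lower without overlap for 531 (23.2%). Circle and host values of a locus come from the same libraries, so these shares are a description.

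**Figure D3:**
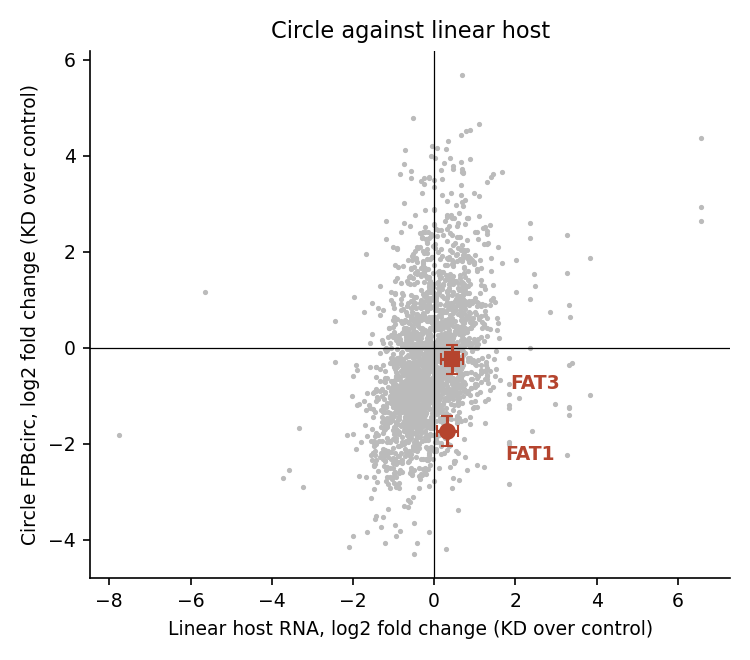
Log2 fold change (KD over control) of circle FPBcirc on the y axis against that of linear host RNA on the x axis, 1 grey point for each of the 2290 tested circles with a tested host. Red symbols with SE bars mark FAT1 (0.33 linear, -1.74 circle) and FAT3 (0.43 linear, -0.24 circle).

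The other FAT1 circles were rare and spread along the gene. RefSeq places FAT1 on the minus strand of chromosome 4, from 186587794 to 186726696 on GRCh38, and lists starts at 186726696 and 186723856. Both lie upstream of the large circle, by 16851 and 14011 bases, and the circle covers 2.36% of the gene. Its upstream edge at 186709845 was used by 4 further circles with 33 reads in all, which extend downstream over 46547 to 114157 bases.

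The most frequent of these, from 186663299 to 186709845, spans 46547 bases. It had 13 and 7 reads (0.0786 and 0.146 FPBcirc) in KD replicates 1 and 2, against 0 and 7 reads (0 and 0.342 FPBcirc) in control replicates 1 and 2. The 3 reads that the count of 0 allows amount to 0.153 FPBcirc in control replicate 1. The groups overlapped. No other minor FAT1 circle had more than 4 reads, and 5 of them had 1 read.

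**Figure D4:**
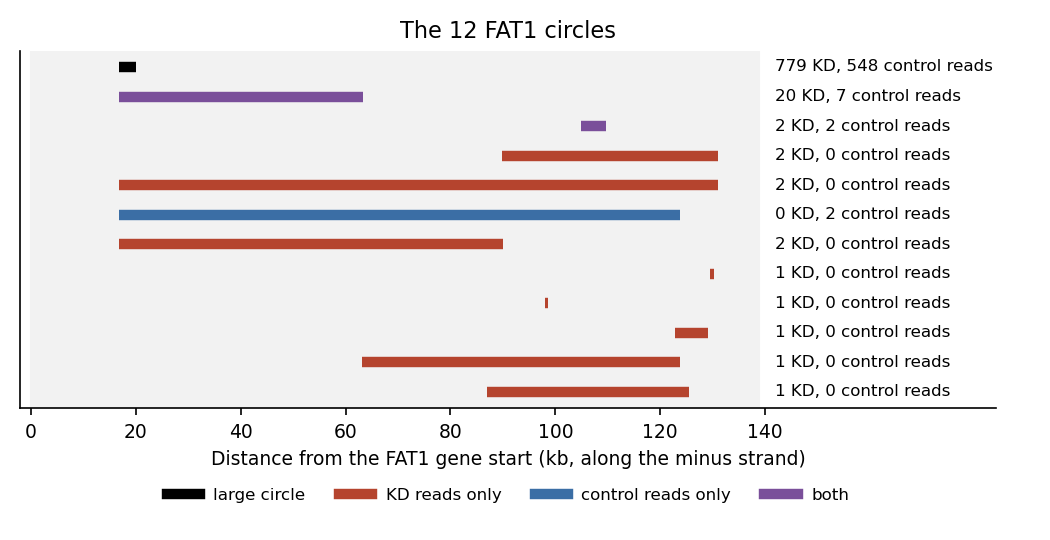
The 12 FAT1 circles drawn to scale along the gene, with distance from the gene start in kb on the x axis and 1 row per circle, ordered by reads, colours giving the groups with reads and the counts standing at the right. The large circle has 779 KD and 548 control reads, and 4 longer circles begin at the same edge.

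The large circle took 95.8% and 96.2% of FAT1 backsplice reads in KD replicates 1 and 2, and 98.1% and 98.0% in control replicates 1 and 2. The 95% Wilson intervals were 93.9 to 97.2 and 92.9 to 98.0 in KD, and 95.3 to 99.3 and 95.9 to 99.0 in controls. They overlap between the groups. Summed, the minor FAT1 circles had 0.145 and 0.188 FPBcirc in KD and 0.205 and 0.342 in controls, on 24 and 9 reads in KD and 4 and 7 in controls.

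In FAT3 the large circle took 97.2% and 99.2% of reads in KD replicates 1 and 2, and all 84 and 116 reads in control replicates 1 and 2. Its 8 minor circles had 17 and 2 reads in KD and 0 in controls. The most read of them, from 92843934 to 92859322, had 5 reads, all in KD replicate 1. A further circle of 172853 bases, from 92352096 to 92524948, shares its first base with the large circle and had 2 reads in the same library. The strand of FAT3 was not given in the tables used here.

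FAT4 had 9 and 2 reads in KD replicates 1 and 2 and 0 and 2 in control replicates 1 and 2, or 0.0544 and 0.0417 FPBcirc in KD and 0 and 0.0978 in controls. Its most read circles, from 125406880 to 125434425 and from 125414884 to 125452810 on chromosome 4, had 4 reads each, all in KD replicate 1. The circle from 125398784 to 125416622 had 2 reads, both in control replicate 2. No FAT4 circle was read in both groups, and at this depth no difference was detectable.

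The KD libraries, which are deeper, showed more isoforms. The family showed 20 and 9 circles in KD replicates 1 and 2, against 4 in each control library. At the depth of control replicate 1, the numbers expected from the same reads were 6.73 and 5.42 in KD and about 4 in both controls. Of the 27 members, 21 were read in KD alone, 2 in controls alone and 4 in both, and 22 were read in a single library. Over the whole table, 69.6% of circRNAs were read in KD alone.

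By level, the large FAT1 circle (mean 8.83 FPBcirc over the libraries) stood between circles of GCN1 (11.9) and CPSF6 (9.29) above and a pair of MAN1A2 circles (8.15 and 8.07) below. GCN1, a sensor of stalled ribosomes, had 12.4 and 15.0 FPBcirc in KD and 10.3 and 10.0 in controls, which does not overlap and runs the other way. The MAN1A2 circle of 12646 bases averaged 3.40 in KD and 12.9 in controls, where the FAT1 circle averaged 4.03 and 13.6.

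The circles most like FAT1 were found among 274 circles of other hosts with at least 20 reads in every library, by the root mean square difference of centred log2 levels over the 4 libraries. They came from CLASP2, a microtubule plus end protein (0.03), CCT2, a chaperonin subunit (0.04), and MAN1A2, an N-glycan mannosidase (0.04). ANKRD12 (0.07) and MAN2A1, a Golgi mannosidase (0.14), followed. Their FPBcirc log2 fold changes lay between -1.80 and -1.74, a closeness to FAT1 that the choice by levels fixes. Linear RNA of MAN1A2 and MAN2A1 fell (log2 fold changes -0.97 and -0.89, limma adjusted p = 0.00222 and 0.00546). Neither passed without control replicate 1 (-1.05 and -0.90) or control replicate 2 (-0.89 and -0.87), or with limma without trend and robust moderation (limma adjusted p = 0.0740 and 0.105). That of CLASP2 (0.23), CCT2 (-0.46) and ANKRD12 (-0.09) did not pass.

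Circles of a like span stood on both sides of 0. Of 101 other tested circles within 10% of its span, a group chosen after the values were seen, 38 were lower and 13 higher in KD without overlap, where 38.4% and 16.2% of all tested circles were. Their median log2 fold change was -0.16, where that of all tested circles was -0.33. The value was below that of FAT1 for 13, and no circle of this span had a higher mean level than FAT1.

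Of 60 symbols of the wider FAT and Hippo pathway, 47 were listed as circle hosts, with 283 circles. Of these, 12 from 9 hosts were tested (4.24%, where 5.37% of all listed circles were), of which 0 passed, with a median log2 fold change of -0.10 against -0.33 for all circles. The circle of STK4, a Hippo core kinase, had 0.167 ± 0.0292 FPBcirc in KD and 0.975 ± 0.00478 in controls, and the STK3 circle, from the sister kinase gene, had 0.921 ± 0.439 and 2.24 ± 0.742 (SD, n = 2 each). Circles of PTPN14, a phosphatase that binds YAP, and of AMOTL1, an angiomotin, had higher KD means, at 1.01 ± 0.0966 and 1.02 ± 0.0922 FPBcirc in KD against 0.102 ± 0.145 and 0.375 ± 0.0236 in controls. Limma adjusted p for these 4 lay between 0.0781 and 0.191. Without control replicate 2, where 28.3% of all circles passed on a single control library, so did each of the 4, at log2 fold changes of -2.33 for STK4, -1.63 for STK3, 2.12 for PTPN14 and 1.42 for AMOTL1. Without control replicate 1, where 31.4% of all passed, STK4 (-2.34) and PTPN14 (4.90) did, while STK3 (-0.95) and AMOTL1 (1.30) did not. PTPN14 had 0 reads in control replicate 2, so the pseudocount sets the value of 4.90. Over the 3 gene lists used here, circles with an unadjusted limma p under 0.05 numbered 2 higher and 3 lower for the pathway, 0 for cadherins and catenins, and 0 higher and 2 lower for partners of the FAT1 tail. Of all tested circles 5.11% were higher and 14.0% lower by that measure. On recovered reads edgeR called 0 circles of these lists, and DESeq2, which called 9.81% of all circles, called those of PTPN14 and AMOTL1 higher and that of HOMER1 lower.

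Linear RNA of the pathway was called in both directions, with 2 higher and 4 lower of 18 hosts tested (10.8% higher and 23.8% lower among all hosts) and a median log2 fold change of -0.22 (-0.21 for all). LATS2, the kinase that phosphorylates YAP, rose to 3.56 and 3.70 FPB in KD, against 1.83 and 2.50 in controls (log2 fold change 0.75, limma adjusted p = 0.0237). TEAD1, the DNA-binding partner of YAP, rose to 6.91 and 6.81, against 3.64 and 4.60 (0.74, limma adjusted p = 0.0230). STK4 fell to 4.89 and 6.62 FPB in KD, against 13.9 and 17.1 in controls (-1.43, limma adjusted p = 1.47e-06). PALS1, a polarity scaffold (-1.40), STK38, a kinase related to LATS (-1.21), and STRN, a phosphatase regulator (-0.65), fell as well.

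The calls on STK4 and PALS1 held without any 1 library. LATS2 (0.53 and 0.97), TEAD1 (0.57 and 0.91) and STRN (-0.74 and -0.57) did not pass without control replicate 1 or control replicate 2. STRN was also lost without KD replicate 1 (-0.39), and STK38 was lost without control replicate 2 (-1.10). With limma without trend and robust moderation LATS2, TEAD1 and STRN did not pass either (limma adjusted p = 0.188, 0.195 and 0.264).

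Cadherins and catenins, a list of 70 symbols of which 3 also stand in the pathway list, had 23 circle hosts. The 4 tested circles, of which 0 passed, had a median log2 fold change of -0.25, against -0.33 for all circles. They were 2 circles of CTNNA1 and 1 each of CTNNB1, both catenin genes, and CELSR1, at log2 fold changes of -1.03, -0.66, 1.72 and 0.17. The CTNNB1 circle had 0.212 and 0.334 FPBcirc in KD and 0.205 and 0 in controls. Without control replicate 1 it stood at 3.11, a value that the pseudocount sets since the remaining control had 0 reads. Without control replicate 2 it stood at 0.33. The 4 hosts tested in linear RNA had a median log2 fold change of 0.24, against -0.21 for all hosts. Of them 1 was called higher and 0 lower, where 10.8% and 23.8% of all hosts were. It was CELSR1, a planar polarity cadherin, at 9.13 and 6.09 FPB in KD and 3.79 and 4.60 in controls (log2 fold change 0.83, limma adjusted p = 0.00932), a call lost without either control library (0.69 and 0.97) and without KD replicate 1 (0.54), and also with limma without trend and robust moderation (limma adjusted p = 0.135). CTNNA1 (-0.49), CTNNB1 (0.26) and PKP4 (0.23) did not pass.

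Of 7 genes listed as partners of the FAT1 tail, 3 gave 10 tested circles, of which 0 passed. Those circles were 22.2% of the list's circles, where 5.37% of all listed circles were tested. Their median log2 fold change was -0.58, against -0.33 for all circles. The HOMER1 circle had 1.79 ± 0.649 FPBcirc in KD and 4.92 ± 0.305 in controls (SD, n = 2 each, limma adjusted p = 0.0914). Its log2 fold change was -1.55 without control replicate 1 and -1.42 without control replicate 2. A circle of RERE, an atrophin relative, stood at -1.61 and one of ENAH, the Ena/VASP protein that binds FAT1, at 2.35. That of RERE stood at -1.62 without control replicate 1 and at -1.60 without control replicate 2. The ENAH circle had 0.586 and 0.543 FPBcirc in KD and 0.358 and 0 in controls. Without control replicate 1 it stood at 4.10, set by the pseudocount against 0 reads, and without control replicate 2 at 0.61. A second RERE circle was at -0.97.

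Linear HOMER1, a synaptic scaffold gene, fell to 2.94 and 4.99 FPB in KD, against 7.89 and 10.1 in controls (log2 fold change -1.21, limma adjusted p = 9.14e-05), a call lost without control replicate 2 (-1.04). ENAH (0.21) and RERE (-0.08) did not pass. Thus 1 of 3 hosts was called, where 10.8% of all hosts were called higher and 23.8% lower.

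In CIRCscore 0 circles of the 3 lists passed, of 8, 3 and 8 tested. At an unadjusted limma p under 0.05 there were 1, 0 and 1, both lower, where 2.96% of all circles were higher and 17.9% lower by that measure. The smallest p in the pathway belonged to circles of STK3 (-1.62), TEAD1 (-1.53), AMOTL1 (0.91) and STK4 (-0.95). This STK3 circle, from 98706467 to 98749390, is a longer one than that given above for FPBcirc, which ends at 98707311. Without control replicate 2, where 15.6% of all circles passed, those of STK3 (-2.05) and TEAD1 (-2.51) did, and without control replicate 1 they did not (-1.20 and -0.56). The cadherin circles had -0.42 and -0.13 for CTNNA1 and -0.62 for CELSR1, which passed without control replicate 2 (-1.90) and stood at 0.66 without control replicate 1. Circles of RERE had -1.46, -0.86, -0.85 and 1.02, and the last passed without control replicate 2 (2.06) and stood at -0.021 without control replicate 1.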

How the data were processed

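Per the labels, total RNA was depleted of rRNA and made into strand-keeping libraries. The submitters' processing notes name Bowtie2 2.3.5, bcl2fastq 2.20 and build hg38, and no circRNA caller. Per the file headers, FPBcirc is a signal that the authors scaled to mapped bases. The deposited CIRCscore is a ratio of circle to linear host signal, and the deposited fold between group means (0.301 for the large FAT1 and 0.851 for the large FAT3 circle in the authors' deposited table) is a ratio as well.

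Divided by the smallest value of its library, FPBcirc came out whole for 100% of values (tolerance 0.001 of a read), which gave reads and depth. FPBlinear was derived as (FPBcirc + 0.01) / CIRCscore minus 0.01, the median per host. Among hosts with more than 1 circle value in a library, it agreed over the circles for at least 99.8%. Starts were converted to count from 1.

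Groups were compared with limma 3.58.1 (R 4.3.3; variance trend, robust moderation) on log2(value + pseudocount), with pseudocounts of 0.0349 FPB and 0.00448 CIRCscore, which understates changes of low values. P-values are two-sided and Benjamini-Hochberg adjusted over all features tested, with 0.05 as threshold. Biological replicates are as the labels call them. Named were members with 10 or more reads and, per list, up to 8 calls filled to 4 by the smallest p. Expected isoform counts at lower depth treat each read as kept with the ratio of depths. The members, lists and tests were chosen with earlier results of these data known. Alternatives included DESeq2 1.42.0 and edgeR 4.0.16, run on those reads; figures used matplotlib 3.10.9.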

Additional observations from a re-analysis of the deposited data

How the results depend on the processing

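The large FAT1 circle was lower in KD under all 14 alternatives for FPBcirc (log2 fold change -2.05 to -1.10) and all 10 for CIRCscore (-2.35 to -1.57, the last with library median centring). For most of them the sign was fixed in advance. The groups did not overlap, so leaving out a library or changing the pseudocount could not turn it. The replicate block, the filters and limma without trend and robust moderation leave the estimate itself unchanged. Only another scaling of the libraries could have turned the sign. The FPBcirc value of the FAT1 circle moved most with library median centring (-1.24), edgeR (-1.10) and DESeq2 (-1.12). The circle passed the threshold under the replicate block (134 called of 2427 circRNAs) and a pseudocount 3 times larger (44 of 2427). It also passed with a filter at 20 reads (138 of 499) and with DESeq2 (238 of 2427). FAT1 was singled out with its lower KD level already known, so these passes are a description and nothing is read from them. Fits without a control library are left out here, since nothing is read from their calls. The large FAT3 circle passed under none and turned to 0.25, 0.42 and 0.40 with median centring, edgeR and DESeq2; its CIRCscore value was -0.19 with median centring. Linear FAT1 and FAT3 passed with median centring alone (0.51 and 0.61), where 560 of 2547 hosts were called higher. With circles read in 2 or more libraries only, the large circle took 97.2% of FAT1 reads in KD and 98.5% in controls, on means of 96.0% and 98.0%. The cause of these shifts was not tested.

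Counts over all features moved far more. FPBcirc calls numbered 13 (2 higher, 11 lower). Leaving out a library gave 0 to 761, the replicate block 134, pseudocounts 3 times smaller or larger 6 and 44, median centring 1, limma without trend and robust moderation 0, a filter at 20 reads 138, no filter 0, scaling to all backsplice reads (chosen after seeing the data) 4, edgeR 1 (higher) and DESeq2 238 (173 higher, 65 lower). Limma without trend and robust moderation still moderates the variance. At an unadjusted limma p under 0.05 it had 135 higher and 301 lower, and the main fit without filter had 3783 and 599. With median centring the median FPBcirc log2 fold change was 0.17, instead of -0.33. CIRCscore calls numbered 2, with 8 to 285 when a library was left out, 9 under the block, 1 with the larger pseudocount, and 0 with median centring (unadjusted p under 0.05 for 166 higher and 127 lower) or without moderation (58 and 327). Linear calls numbered 880 (275 higher, 605 lower), with 298 to 1241 when a library was left out and 341 without moderation; median centring split them into 560 and 592. The replicate numbers share only a number (correlation of deviations 0.00 for FPBcirc and 0.09 for linear RNA); besides the FAT1 circle, the block turned linear CTNNA1 and circles of STK4, PTPN14 and HOMER1 into calls.

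Signs of list members turned for the CELSR1 circle (-0.96 to 1.31 in FPBcirc and -1.90 to 0.66 in CIRCscore when a library was left out), the CTNNA1 circles in CIRCscore (0.064 and 0.35 with median centring, and -0.53 to 0.26 for the second when a library was left out), a RERE circle in CIRCscore (-0.021 to 2.06 when a library was left out), and linear ENAH (-0.030 to 0.45 likewise), RERE (0.10 with median centring) and ANKRD12 (0.085 with median centring, -0.27 to 0.083 when a library was left out). Linear CLASP2 passed with median centring (0.41). Depth limits the minor circles, of which 24 had 5 reads or fewer.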
